A study of Homo sapiens with 2 samples.

Results

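Circular RNAs (circRNAs) of 6 host genes that handle foreign compounds were described in SW620 cells, a human colorectal cancer cell line. The hosts were AHRR, TIPARP, NQO1, SQSTM1, ABCC1 and ABCC4, and a circRNA was taken when its host field held exactly 1 of these names. This gave 12 of the 1485 circRNAs in the deposited table, and each of the 12 named a single host. The cells had received Hedyotis diffusa-Sculellaria barbata (HD-SB), a pair of medicinal herbs, at 1 mg/mL for 24 h in 1 library, and were labelled Control in the other. What the Control cells were given is not stated in the sources used here. RNA was freed of ribosomal RNA and digested with RNase R, an enzyme that removes linear RNA, before sequencing. There was 1 library per group and 1 cell line. No value therefore carries an error between replicates, and the libraries are compared as libraries, not as conditions.

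A circRNA forms when a splice donor joins a splice acceptor that lies upstream of it, and it is counted from reads that cross this back-splice junction. The aryl hydrocarbon receptor (AHR) is a transcription factor that binds many planar aromatic compounds and pairs with ARNT to switch on detoxification genes. AHRR and TIPARP are among its targets and damp its activity, AHRR by competing for ARNT and TIPARP as an ADP-ribosyltransferase. NQO1 reduces quinones and is a target of both AHR and NRF2, the transcription factor of the oxidative stress response. SQSTM1, or p62, is an autophagy receptor that also binds KEAP1, the inhibitor of NRF2. ABCC1 and ABCC4 are membrane transporters that use ATP to export organic anions, among them drugs and their conjugates.

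The deposited values were reads per 1000000 back-splice reads (CPM), which converted back to 11570 reads on 1475 circRNAs in HD-SB and 91 reads on 32 circRNAs in Control. No listed value was below 2 reads in either library, and a circRNA that is not listed was taken to have had 0 or 1 read. The sources used here do not state the filters behind the list, so one with more reads may have been left out for another reason. The reads of unlisted circRNAs are in neither total, and every share is one of listed reads. That minimum equals 173 CPM in HD-SB and 21978 CPM in Control. All intervals are exact 95% intervals by the Clopper-Pearson method. They cover counting error alone, not differences between replicates. Copies made by amplification are not separate molecules, so the intervals are too narrow where such copies were counted. Of the epithelial markers, EPCAM gave 3 circRNAs with 9, 8 and 3 reads in HD-SB, and the brush border gene VIL1 gave 1 with 18 reads, and neither was listed in Control. The remaining 13 of 15 colon epithelium markers gave no circRNA. The lists of leukocyte, of fibroblast and endothelial, and of hepatocyte markers gave 0 circRNAs in both libraries.

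The exons inside each circRNA could be placed by length. The span of every one of the 12, from the start to the end of its table position, equalled exactly 1 distance between an exon start and an exon end of its host in the GENCODE 29 annotation. For all circRNAs with 1 annotated host name, 95.8% of 1312 spans equalled such a distance, against a mean of 3.20% after the span was changed by 1 to 3 bases. Positions are given as the table has them, in a build that was not established, and exon numbers refer to the annotated transcript. Whether introns between these exons are kept in the circles was not measured.

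The junctions are shown for the 3 circRNAs of AHRR, whose ends differ or coincide, and for 1 circRNA of each other host. Each line has the last 20 bases of the last exon in lower case, joined to the first 20 bases of the first exon in capitals, 5′ to 3′ in the sense of the gene. The sequences are from GENCODE 29 transcripts of GRCh38, on the minus strand for NQO1 and ABCC4 and on the plus strand for the others.
AHRR exons 3 to 4: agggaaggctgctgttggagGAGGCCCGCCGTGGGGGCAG
AHRR exons 2 to 4: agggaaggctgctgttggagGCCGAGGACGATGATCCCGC
AHRR exons 6 to 9: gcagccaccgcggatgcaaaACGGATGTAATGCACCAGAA
TIPARP exons 3 to 4: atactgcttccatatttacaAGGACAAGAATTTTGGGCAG
NQO1 exons 2 to 3: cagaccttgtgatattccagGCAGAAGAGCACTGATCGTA
SQSTM1 exons 3 to 5: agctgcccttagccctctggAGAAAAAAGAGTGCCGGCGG
ABCC1 exons 2 to 4: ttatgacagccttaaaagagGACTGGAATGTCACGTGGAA
ABCC4 exons 10 to 13: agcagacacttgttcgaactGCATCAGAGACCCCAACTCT

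The 12 circRNAs held 95 reads in HD-SB, 0.821% of its back-splice reads (0.665 to 1.003), and no listed read in Control. By number they were 0.814% of the HD-SB list (0.421 to 1.417). AHRR alone gave 60 of the 95 reads, or 63.2%, and its most abundant circRNA 49, or 51.6%. With that circRNA left out of both the members and the total, the other 11 held 46 reads or 0.399%. The other hosts followed with 16 reads for ABCC1, 9 for TIPARP, 6 for NQO1 and 2 each for SQSTM1 and ABCC4. The median over the 12 was 3.5 reads, below the median of 5 reads over all HD-SB circRNAs. Of the 12, 8 had fewer than 6 reads (each 4 or fewer), and 5 of these 8 were circRNAs of ABCC1. Among all HD-SB circRNAs, 58.5% had fewer than 6 reads.

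**Figure D1:**
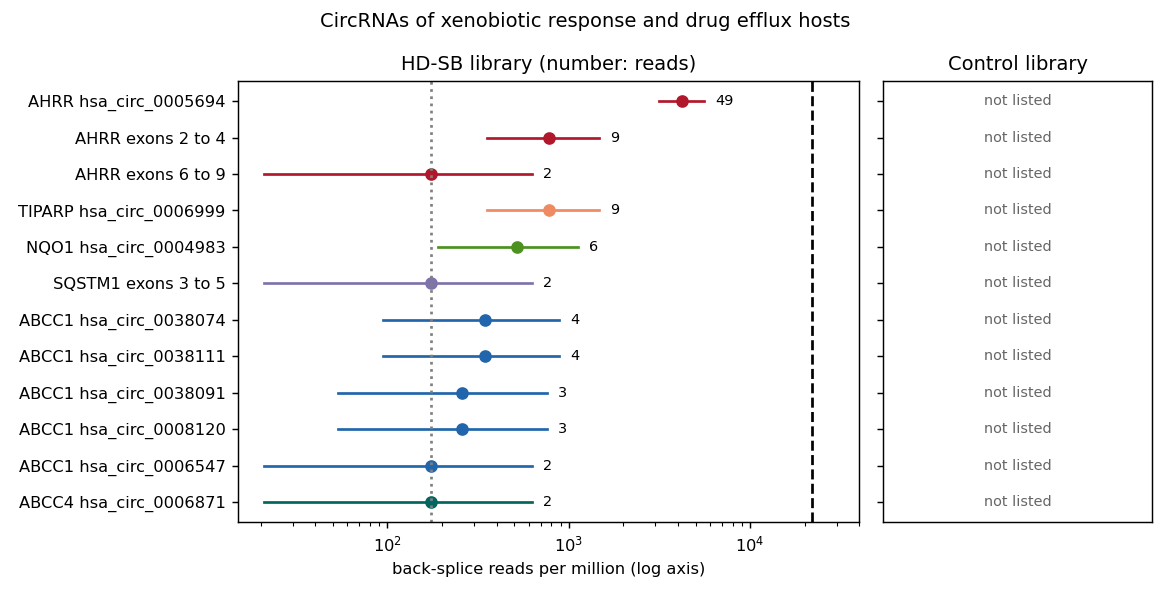
Abundance (CPM) of each of the 12 circRNAs on a log axis in the HD-SB library (left), with exact 95% intervals as lines and the reads as numbers, and their listing in the Control library (right). The dotted line marks 2 reads in HD-SB (173 CPM) and the dashed line 2 reads in Control (21978 CPM). The AHRR circRNA with 49 reads lies above the others, all 12 lie left of the dashed line, and none was listed in Control.

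AHRR, the repressor of the receptor, had 3 circRNAs. The most abundant, hsa_circ_0005694 (chromosome 5, 353845 to 376831), had 49 reads or 4235 CPM in HD-SB (3135 to 5595) and was not listed in Control. It ranked 23rd of the 1475 circRNAs of HD-SB, and 98.4% of them had fewer reads. It takes in exons 3 and 4 of 12, which are 289 nt long within a span of 22987 bp. The second (chromosome 5, 344008 to 376831, with no circBase identifier) had 9 reads or 778 CPM in HD-SB (356 to 1476) and was not listed in Control. It ends at the same donor, the end of exon 4, but starts 9837 bp upstream at exon 2, which makes it 361 nt long (366 nt by another annotated transcript). The lower case letters of the first and second AHRR junctions above are therefore the same bases, while the capitals differ. Of the 58 listed back-splice reads at this donor, 49 joined it to exon 3, or 84.5% (72.6 to 92.7). Back-splices below the listing minimum and linear splicing at this donor are not counted, so this is not the full use of the donor. The third (chromosome 5, 422844 to 428121, also without an identifier) had 2 reads or 173 CPM in HD-SB (20.9 to 624), was not listed in Control, and takes in exons 6 to 9, 521 nt long or 467 nt by another transcript. PDCD6, a neighbouring gene on the same strand, also has annotated exons over an edge of the first and second circRNA, so their reads cannot be told from those of a transcript that runs through both genes.

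The AHRR total of 60 reads was 0.519% of HD-SB reads (0.396 to 0.667), and 18 of the 1074 single hosts in the table had more. The hosts nearest to it in summed HD-SB reads, among 192 others with at least 2 circRNAs and none listed in Control, were TBCD (58 reads on 5 circRNAs), ZNF81 (67 on 2) and MAD1L1 (51 on 7). This likeness rests on 2 libraries and on read totals alone.

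TIPARP, the ADP-ribosyltransferase of the same feedback, gave hsa_circ_0006999 (chromosome 3, 156411809 to 156413814). It had 9 reads or 778 CPM in HD-SB (356 to 1476) and was not listed in Control. It takes in exons 3 and 4 of 6, 330 nt long. Its reads equalled those of the second AHRR circRNA, and 58 circRNAs of HD-SB had that same number.

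NQO1, the quinone reductase, gave hsa_circ_0004983 (chromosome 16, 69752026 to 69752437) with 6 reads or 519 CPM in HD-SB (190.3 to 1128) and no listing in Control. Its exons 2 and 3 of 6 add up to 296 nt within a span of 412 bp, the shortest of the 12 and shorter than that of all but 5.49% of HD-SB circRNAs. SQSTM1, the KEAP1-binding autophagy receptor, gave 1 circRNA (chromosome 5, 179250858 to 179252226, with no identifier) with 2 reads or 173 CPM in HD-SB (20.9 to 624) and no listing in Control. It takes in exons 3 to 5 of 8, 453 nt long. Both hosts thus had a single circRNA, and the interval of SQSTM1 reaches above the value of NQO1, so their order was not resolved at this depth.

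ABCC1, the exporter of organic anions, gave more circRNAs than any other of the 6 hosts, with 5 of low and similar level, none of them listed in Control. In HD-SB, 4 reads or 346 CPM (94.2 to 885) fell on hsa_circ_0038074 of exons 2 to 4 (chromosome 16, 16101673 to 16108485). The same number fell on hsa_circ_0038111 of exons 11 and 12 (16146581 to 16150152). There were 3 reads or 259 CPM (53.5 to 758) each for hsa_circ_0038091 of exons 5 to 7 (16110353 to 16130460) and hsa_circ_0008120 of exons 18 and 19 (16180681 to 16184445). The fifth, hsa_circ_0006547 of exons 25 to 27 (16218646 to 16225792), had 2 reads or 173 CPM (20.9 to 624). The intervals of all 5 overlap, so no order among them was resolved. Unlike the first and second circRNA of AHRR, no pair of them overlaps or shares an edge, and gaps of 1868 to 34201 bp separate them along 124120 bp of the gene. Both arrangements were common, since 110 of the 205 hosts with 2 or more circRNAs (53.7%) had a shared start or end. Only 5 of the 1074 hosts had more circRNAs than ABCC1, and 80.9% had 1. The ABCC1 reads were nonetheless few, with 16 in sum or 0.138% of HD-SB reads (0.0791 to 0.224), and 130 hosts had more.

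ABCC4, the related transporter, gave only hsa_circ_0006871 of exons 10 to 13 (chromosome 13, 95829961 to 95840796). It had 2 reads or 173 CPM in HD-SB (20.9 to 624), the listing minimum, and was not listed in Control. Its exons are 464 nt long, or 459 nt by another annotated transcript.

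**Figure D2:**
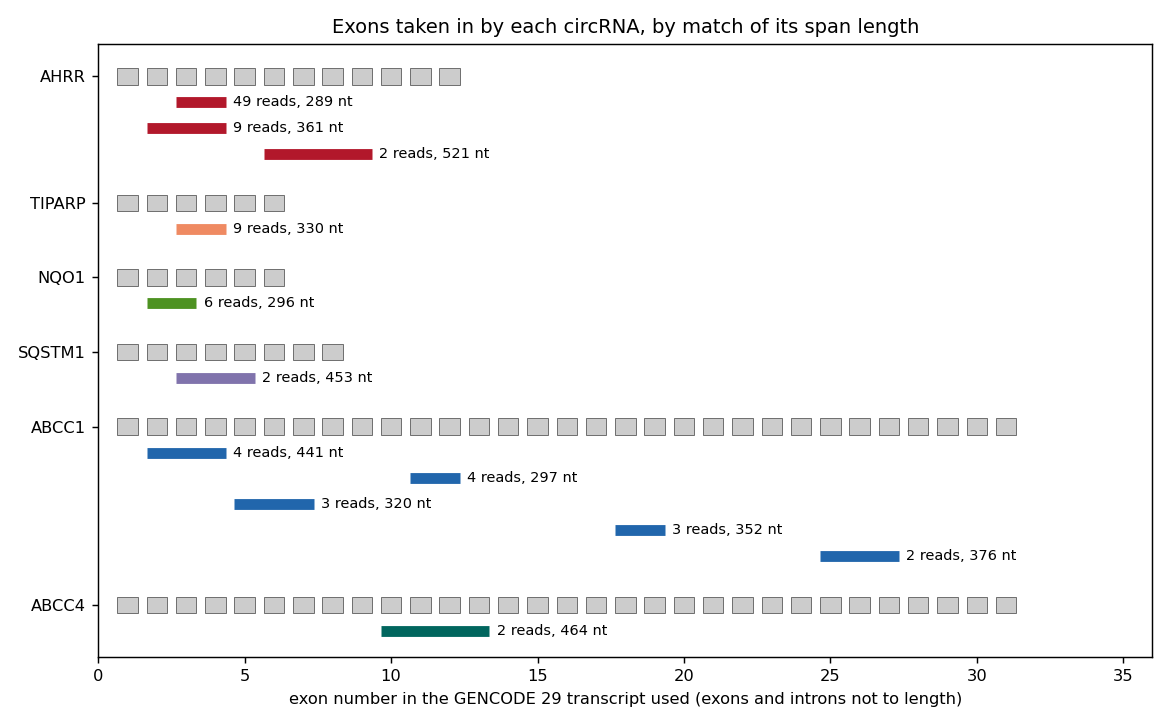
Exons of each host drawn as numbered grey boxes, not to length, with a coloured bar for the exons each circRNA takes in and its HD-SB reads and exon length beside it. The bars with 49 and 9 reads of AHRR end at the same exon, and the 5 bars of ABCC1 lie apart from each other between exons 2 and 27.

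**Figure D3:**
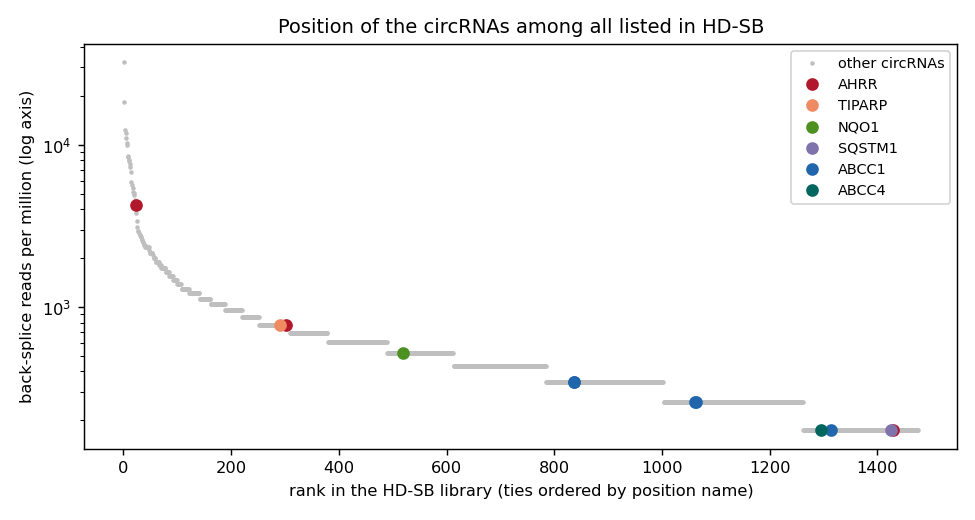
Abundance (CPM, log axis) against rank for the circRNAs listed in HD-SB, with other circRNAs in grey and those of the 6 hosts in colour. The highest AHRR point is at rank 23, the points of TIPARP and the second AHRR circRNA lie among 58 circRNAs of 9 reads, and those of 2 reads lie at the lower end.

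The 12 circRNAs were short runs of internal coding exons. They were made of 2 to 4 exons with a median of 3, which is also the median over the 1221 circRNAs with 1 placed exon pair, where the range was 1 to 26. None of the 12 held the first or the last exon of its transcript, which 3 and 4 of the 1221 did. All 12 lay wholly in coding sequence, against 80.3% of the 1221, and none held the annotated start codon, against 15.8%. The first exon was exon 2 in 3 of the 12, against 31.6% of the 1221. The exon length was a multiple of 3 in 4 of the 12, those of TIPARP, SQSTM1 and ABCC1 exons 2 to 4 and 11 to 12, or 33.3% against 37.1%. These shares are descriptions of a small set and were not tested.

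Exon length varied little while span varied widely. The exons inside measured 289 to 521 nt with a median of 356.5 nt. Over the 1221 the median was 371 nt and the range 98 to 3477 nt, which a larger set widens by itself. The spans ran from 412 bp for NQO1 to 32824 bp for the second AHRR circRNA, with a median of 6046 bp, against 4076 bp for all of HD-SB. Spans of at least 10000 bp, found in 2 circRNAs of AHRR and 1 each of ABCC1 and ABCC4, carried 63 of the 95 reads, or 66.3%, against 24.3% of all HD-SB reads. That share rests on the AHRR circRNA with 49 reads. The GC content of the AHRR exons was 62.4% to 66.8%, and 89.4% of the 1221 circRNAs had less than the lowest of them. Among the other hosts it ran from 43.0% for TIPARP to 62.9% for SQSTM1, with 50.6% to 58.2% for ABCC1, beside a median of 49.7% over the 1221.

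**Figure D4:**
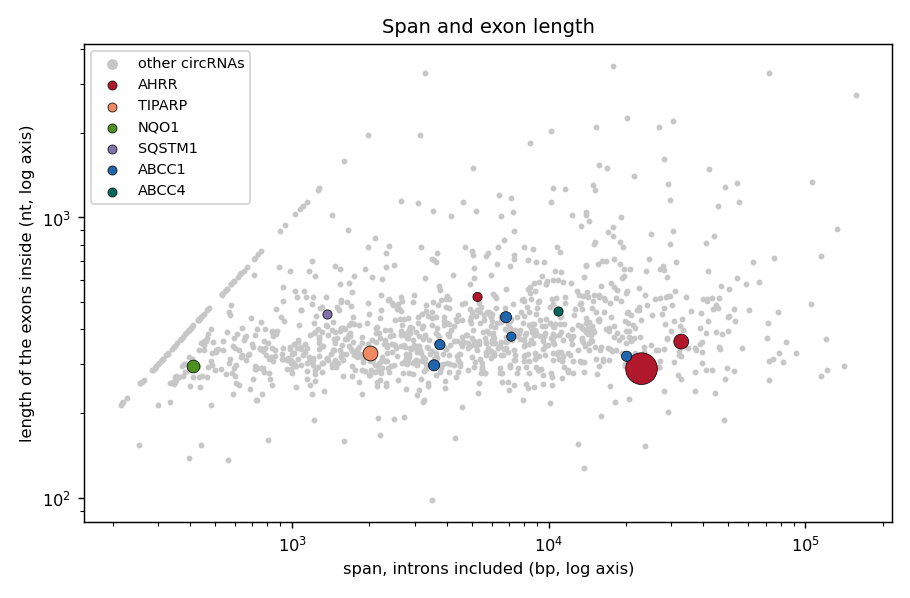
Length of the exons inside (nt, log axis) against the span with introns (bp, log axis) for the 1221 placed circRNAs, with other circRNAs in grey and those of the 6 hosts in colour, the point area rising with HD-SB reads. The coloured points stay between 289 and 521 nt while their spans run from 412 to 32824 bp.

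A circBase identifier was carried by 9 of the 12 circRNAs, or 82 of the 95 reads, and 75.6% of the HD-SB list carried one. The 3 without were the AHRR circRNAs of exons 2 to 4 and 6 to 9 and that of SQSTM1.

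The comparison of HD-SB with Control, which asks which circRNAs differ after the herbs, could not resolve these hosts. At the HD-SB share, the 95 reads correspond to 0.747 reads among the 91 of Control, and the 49 reads of the leading AHRR circRNA to 0.385 reads. Both lie under the smallest listed value of 2 reads. An unlisted circRNA at 1 read would allow up to 5.97% of Control reads. By an interval on the ratio of read shares, with unlisted circRNAs taken at both 0 and 1 read, 0 of the 12 were higher and 0 lower in HD-SB than in Control. Over the whole table the same rule called 0% of 1485 circRNAs higher and 2.02% lower. A call of lower was open only to the 32 circRNAs listed in Control, so none of the 12 could have received it. Of those 32, 30 received it. No circRNA could have been called higher, since that needed 471 reads in HD-SB against 0 in Control, or 711 against 0 or 1, and the highest of any circRNA was 373. By the size rule, at least 2-fold on the log2(CPM + 173) scale among circRNAs averaging at least 216 CPM over the pair of libraries, 4 of the 12 passed the filter, those with 6 or more reads in HD-SB, and all 4 counted as higher, against 96.0% of the 797 circRNAs that passed and 4.02% that were lower. At this setting that share is near the background, and each of the 4 is a listed value set against none, so a difference between HD-SB and Control was not detectable at this depth.

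Further genes of the same pathways were taken from lists chosen with earlier results of these data known. Several lists also hold hosts already described, whose circRNAs are counted again in the list totals. The share of all genes that have a listed circRNA was not computed, so these counts are not read as many or few. Of 24 AHR pathway genes, 6 had circRNAs, with 9 circRNAs and 93 reads in HD-SB (0.804%, 0.649 to 0.984) and none listed in Control. Apart from AHRR, TIPARP and NQO1 these came from PTGES3, a co-chaperone of the receptor complex (6 reads), NCOA2, a coactivator (6 and 3 reads), and NRIP1, a corepressor (3 reads). AHR and ARNT themselves, and CYP1A1 and CYP1B1, the monooxygenases that AHR induces, had none.

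Of 38 NRF2 pathway genes, 5 had 1 circRNA each, with 20 reads in HD-SB (0.173%, 0.106 to 0.267) and 2 in Control (2.20%, 0.267 to 7.71). The pentose phosphate enzymes TALDO1 (hsa_circ_0003307) and PGD (hsa_circ_0009732) had 6 reads each in HD-SB and were not listed in Control. BACH1, a repressor that competes with NRF2 for its sites, was not listed in HD-SB and had 2 reads in Control (hsa_circ_0001181, chromosome 21, 30693542 to 30702014). BACH1 was called lower in HD-SB by the interval rule, the only such call among the pathway lists, on 2 reads. Every circRNA listed in Control had at least 2 of its 91 reads, so listing itself favours a larger Control share. Over the whole table, 30 of the 32 circRNAs listed in Control were called lower. The call for BACH1 therefore follows largely from its being listed, and nothing is concluded from it.

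Of 30 ABC transporter genes, 3 had circRNAs, with 8 circRNAs and 23 reads in HD-SB (0.199%, 0.126 to 0.298) and none listed in Control. Beside ABCC1 and ABCC4 only ABCD3, a peroxisomal transporter of fatty acids, was found, with 3 and 2 reads. ABCB1 and ABCG2, the best known drug efflux pumps, had none. Of 42 genes of phase I and II enzymes and xenobiotic receptors, only the aldehyde dehydrogenase ALDH2 had a circRNA, with 3 reads in HD-SB and none listed in Control. Among 12 other organic ion carriers, SLC22A3 (hsa_circ_0078607) had 7 reads and SLCO4A1 6 reads in HD-SB, and neither was listed in Control. Among 19 autophagy genes, ATG7 (hsa_circ_0005740) and ATG5 (hsa_circ_0077536) had 4 reads each in HD-SB beside the 2 of SQSTM1, and none was listed in Control. For these lists too, the depth of Control left no room for a call of higher in HD-SB (0% of all circRNAs). A gene without a listed circRNA may still be expressed as linear RNA, which was not measured here.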

How the data were processed

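Reads that cross back-splice junctions were analysed in 2 libraries of SW620 cells, 1 of HD-SB and 1 of Control. Per the labels' protocols, ribosomal RNA was removed, linear RNA was digested by RNase R, and the rest was fragmented and amplified. The submitters' processing notes name FastQC, HISAT2 2.1.0 and GRCh38 but not what each was used for. The program that called circRNAs, and whether duplicate reads were removed, is not given in the sources used here.

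The values deposited by the authors are headed TPM but behave as CPM. All listed values (100%) were whole multiples, within 0.01, of 1 step per library, 86.4 CPM in HD-SB and 10989 CPM in Control, whatever the span. The value 0.001 was read as not listed.

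Reads, spans and Clopper-Pearson intervals were computed with Python 3.11.15, pandas 2.3.3, NumPy 2.4.6 and SciPy 1.17.1. Simulated data were used only for the interval on the ratio of read shares, not for the Clopper-Pearson intervals. The simulation left out the listing minimum, so it cannot speak for the calls made here, and nothing is concluded from it. Spans were matched by length to exon edges of GENCODE 29, in the transcript ranked best by its annotation tags. Only 13 of 1221 matched positions equalled those of GRCh38, so no sequence was read by position, and the match was chosen after the table was seen. Of 178 hosts with several placed circRNAs, 172 had 1 shared offset from the annotation. The pseudocount was the 5th percentile of listed values. With 1 library per group no test was made. The hosts and lists were chosen with earlier results of these data known. All circRNAs of the 6 hosts are named. From the lists of other genes, all circRNAs are named where a list had 5 or fewer and otherwise the 5 with most HD-SB reads, and NRIP1, the second NCOA2 and the second ABCD3 circRNA were added after their values were seen.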

Additional observations from a re-analysis of the deposited data

How the results depend on the processing

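The share of HD-SB reads on the 12 circRNAs kept within its interval by number of circRNAs, without hosts of several names and among circRNAs with a circBase identifier (0.814% to 0.847%), and moved to 0.399% without the AHRR circRNA of 49 reads. The Control share was 0 throughout. The 4 circRNAs at least 2-fold higher became 12 of 12 with no filter, by letting more in (1453 of 1485 over the whole table), and 0 by the interval rule, which could call none. They also became 0 with 0.5 read of each library as pseudocount, where 3 of the 4 counted as lower (772 of 797 over the whole table, with 4 higher), since 0.5 read is worth more CPM in Control. With the pseudocount 4 times larger they were 3 of 4, against 296 of 797 over the whole table. The share was thus near that of the table at the reported setting but not at this one. None of the 4 was listed in Control, so the rule here only separated those with 9 or more HD-SB reads from the 1 with 6. It does not measure a difference between the libraries. The stricter filter gave 3 of 3 (366 of 398 over the whole table), the pseudocount 4 times smaller 4 of 4 (765 of 797) and median-ratio scaling 4 of 4 (771 of 797). The median span of 6046 bp became 22987 bp when weighted by reads, through the same AHRR circRNA, and was 4410 to 6813 bp with 1 circRNA per host or with circBase identifiers only. No paired analysis was possible because there was 1 HD-SB and 1 Control library. Depth in Control, at 91 reads, is a limit on all values set against it. With 1 library per group, a deeper Control would still allow a comparison of libraries only, not of conditions.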

Other observations

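The series names hsa-miR-204-5p, whose mature sequence in RefSeq is, with the seed (bases 2 to 8) in capitals, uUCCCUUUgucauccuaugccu. The letters that pair with this seed, AAAGGGA, were searched in the sense strand of the exons of each placed circRNA, across the junction as well. They were in 0 of the 12 circRNAs of the xenobiotic response and efflux hosts and in 4.34% of the 1221 placed circRNAs, or 3.38% of the 1005 that were no longer than the longest of the 12. A match of letters is not a site, and its absence here says only that these letters are not in these exons.

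The RefSeq table of promoters (GRCh38.p14, 250 bases before to 50 after a gene's start) held 10 windows for 5 of the 6 hosts. ABCC1 had no window. The letters GCGTG, the core bound by AHR and ARNT, were found on either strand in 5 of the 10 windows, at AHRR, TIPARP, NQO1 and ABCC4, and in 36.5% of all 35116 windows. The letters TGACNNNGC, the core of the antioxidant response element, were in 1 of the 10, at ABCC4, and in 13.3% of all windows. Bases outside these windows were not searched, so absence here does not mean that a gene lacks either element. No measurement of the promoters was made in these libraries.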
